A study of Mus musculus with 22 samples.

Results

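Bai1, Bai2 and Bai3, the brain-specific angiogenesis inhibitor genes, are described here in mice that lack functional Rlf, a zinc finger protein, and in their wild-type counterparts. The 3 genes were taken by name from the 37991 genes of the count files. Bai2 was chosen by its methylation difference between genotypes in E14.5 liver, and Bai1 and Bai3 were taken as its relatives, so every genotype difference of the 3 genes in E14.5 liver methylation is given below as a description: no p is printed for it, and where the thresholds of the other tissues are applied to it the count only restates the choice. The E10.5 and E18.5 libraries and the RNA counts are not part of that contrast.

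Whole genome bisulphite sequencing, which reads the methylation of single CpGs, covered whole embryos at E10.5 and liver at E14.5 and at E18.5, each tissue with 4 libraries, 2 of them wild-type and 2 mutant. RNA-seq covered E14.5 liver, with 3 libraries of each genotype. All animals were of the Line3 FVB/NJ line, labelled FVB, and both genotypes carried on both chromosomes an array of GFP reporter copies, expressed from human alpha-globin regulatory sequence (promoter and HS-40). Mutants were MommeD28/MommeD28, homozygous for an Rlf allele from an N-ethyl-N-nitrosourea screen that had been backcrossed to the unmutagenised line, and the whole animal carried the allele. The E10.5 embryos were labelled male and the E18.5 livers female. In E14.5 liver, bisulphite replicate 1 was male and replicate 2 female, and RNA replicates 1 and 2 were male and replicate 3 female, in both genotypes. Embryonic day, tissue and sex therefore cannot be told apart when E10.5 embryos are set beside E18.5 livers. Day and tissue cannot be told apart between E10.5 embryos and E14.5 livers either. Sex also differs in part in that comparison and between the liver stages.

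The Bai genes encode adhesion G protein-coupled receptors, large membrane proteins with a long extracellular part that ends in a self-cleaving domain and a membrane-spanning part that signals inside the cell. Their extracellular part carries thrombospondin type 1 repeats, small folds also found in thrombospondin, an inhibitor of blood vessel growth. The family is known mainly from brain. Bai1 binds phosphatidylserine on dying cells and passes the signal through Elmo and Dock proteins to Rac1, and Bai3 binds the C1q-like proteins at synapses. CpG methylation is usually low at the start of a gene within a CpG-rich promoter and high along the gene body.

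On the mouse build mm9, Bai2 (ENSMUSG00000028782) spans chr4:129662114-129699877 on the plus strand, a gene of 37.8 kb with 890 CpGs. Bai1 (ENSMUSG00000034730) spans chr15:74346626-74419873 on the plus strand, 73.2 kb with 1331 CpGs. Bai3 (ENSMUSG00000033569) spans chr1:25124321-25886552 on the minus strand, 762 kb with 4931 CpGs. Bai2 was thus the shortest and the most CpG-dense, with 23.6 CpGs per kb against 18.2 in Bai1 and 6.47 in Bai3. Rlf lies on the same chromosome as Bai2, 8.77 Mb away. A part of variants linked to the MommeD28 allele in the differences at Bai2 was not tested.

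Each embryo library held 319866478 to 363002202 reads summed over CpGs, where a read counts once for each CpG it covers. The E14.5 liver libraries were deeper, at 628996114 to 710952704 in this sum, while those of E18.5 liver held 346349747 to 357281665. Methylation over all CpGs was 70.7% to 72.0% in wild-type and 73.3% to 74.0% in mutant E10.5 embryos, 56.4% to 58.5% and 59.2% to 60.3% in E14.5 livers, and 61.4% to 61.7% and 61.4% to 65.5% in E18.5 livers, where mutant replicate 1 stood above the other 3. The median difference over all tested tiles of 1 kb was 1.13, 1.87 and 2.04 percentage points towards the mutants. Rlf mRNA did not separate the genotypes, with counts of 918, 1094 and 982 in wild type and 983, 1106 and 963 in mutants (log2 change 0.08, SE 0.07, edgeR adjusted p = 0.646), and since the allele comes from a chemical mutagen its counts do not check the labels.

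The part of Bai2 where the genotypes differed lay inside the gene, 21.9 kb from its start, in and around a coding exon for a thrombospondin type 1 repeat. That exon with its flanks on the mm9 reference, chr4:129683929-129684227 (plus strand, 299 bases, 24 CpGs), is shown as the repeat exon with the largest difference. CpGs outside these bases also differed, such as position 129683905, at 35.3% in wild-type and 91.7% in mutant E10.5 embryos on average. Repeat exons of the same length, 165 bp, were compared with the Bai2 exon base by base without gaps, and those of other lengths were not. The closest of Bai1, chr15:74370826-74370990 (plus strand), and of Bai3, chr1:25604261-25604425 (minus strand), are shown because they hold far fewer CpGs at the matching positions. Each sequence is read 5′ to 3′ along its gene, and capitals mark CpGs.
Bai2 repeat exon with flanks: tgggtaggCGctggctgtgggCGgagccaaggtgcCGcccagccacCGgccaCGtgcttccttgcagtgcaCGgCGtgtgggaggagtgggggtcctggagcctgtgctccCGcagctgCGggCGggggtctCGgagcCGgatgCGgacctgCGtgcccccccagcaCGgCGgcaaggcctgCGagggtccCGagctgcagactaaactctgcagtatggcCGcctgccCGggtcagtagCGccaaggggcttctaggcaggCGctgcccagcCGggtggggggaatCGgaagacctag
Bai1 repeat exon: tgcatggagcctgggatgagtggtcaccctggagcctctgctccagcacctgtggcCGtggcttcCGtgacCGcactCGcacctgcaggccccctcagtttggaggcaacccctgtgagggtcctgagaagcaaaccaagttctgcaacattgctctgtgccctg
Bai3 repeat exon: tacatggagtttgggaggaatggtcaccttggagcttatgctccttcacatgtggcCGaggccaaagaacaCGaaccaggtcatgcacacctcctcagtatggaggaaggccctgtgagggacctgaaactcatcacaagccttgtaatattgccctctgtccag

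Over the 24 CpGs of the printed Bai2 sequence, wild-type E10.5 embryos were methylated at 16.5% and 31.7% and mutant embryos at 68.3% and 66.3%. Wild-type E14.5 livers stood at 11.9% and 6.59% and mutant livers at 35.3% and 40.6%. Wild-type E18.5 livers stood at 14.4% and 13.7% and mutant livers at 62.5% and 48.8%. In each tissue both mutant libraries were above both wild-type libraries, and the lowest mutant library of all, in E14.5 liver, was above the highest wild-type library of all, in E10.5 embryos. The gap between the replicates was widest in wild-type E10.5 embryos and in mutant E18.5 livers.

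The difference ran across neighbouring CpGs. In the pair of adjacent 1 kb tiles that hold this exon, 54 CpGs had at least 6 reads in all 12 libraries. Both mutants were above both wild types at 46 of the 54 CpGs in E10.5 embryos (85.2%), 43 in E14.5 livers (79.6%) and 44 in E18.5 livers (81.5%), where 17.6%, 21.1% and 19.7% of all covered CpGs did so in those tissues. The E14.5 count belongs to the contrast on which Bai2 was selected and carries no weight beyond description. Both mutants were below both wild types at 0, 0 and 2 of the 54. The mutants were higher by over 20 points at 37, 32 and 37 CpGs, and by over 40 points at 21, 7 and 15.

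Within these tiles 27 consecutive CpGs, at chr4:129683964-129684463, had both mutants above both wild types in all 3 tissues. This stretch of 500 bp was found from the values themselves, so its levels are given as a description. Wild-type embryos were methylated at 19.2% and 32.7% across it and mutant embryos at 70.9% and 68.4%. In E14.5 livers the values were 14.7% and 8.91% against 37.4% and 42.6%, and in E18.5 livers 17.4% and 18.4% against 62.9% and 51.3%. The stretch was therefore mostly unmethylated in wild type at each stage, and in mutants most of the reads were methylated at E10.5 and E18.5 but under 43% were at E14.5.

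**Figure D1:**
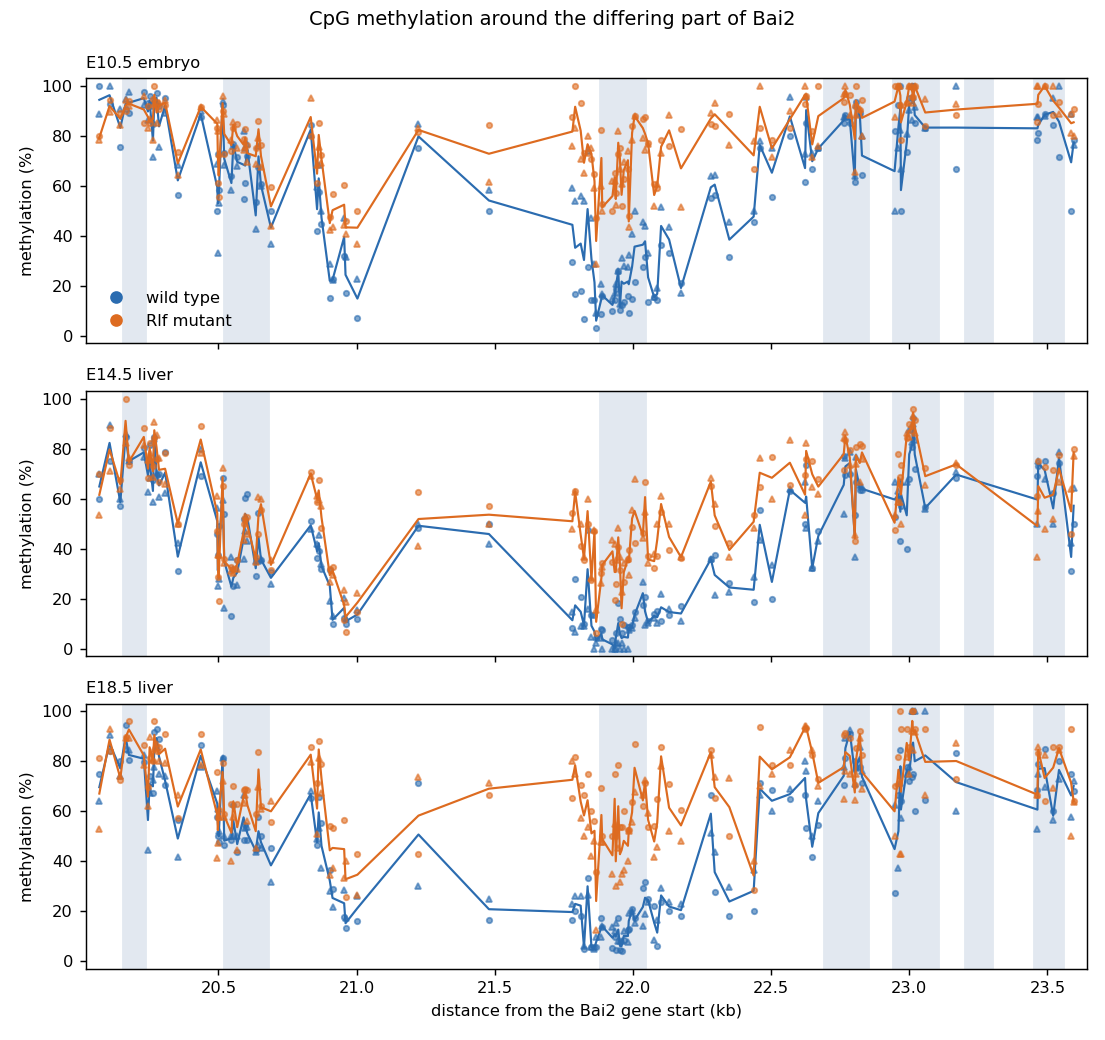
Methylation (%) of single CpGs in and around the differing part of Bai2 against distance from the gene start in kb, with one panel for each tissue. Circles are replicate 1, triangles replicate 2 and lines the genotype means (blue wild type, orange Rlf mutant); the lines separate near 21.9 kb, where the 27 consecutive CpGs averaged 19.2% and 32.7% in wild-type and 70.9% and 68.4% in mutant E10.5 embryos.

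Methylation was then tested in tiles of 1 kb, with edgeR's quasi-likelihood test on the methylated and unmethylated counts of every tile. A tile was called at a Benjamini-Hochberg adjusted p under 0.05 over all tiles of the tissue and a difference over 15 points. With 2 libraries against 2, an exact permutation test of a single tile could not go below p = 0.33, so the calls rest on a spread estimated across all tiles.

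The tile of Bai2 with the largest E14.5 difference, chr4:129684001-129685000, held 42 CpGs and was 62.1% G and C. Wild-type E14.5 livers were methylated at 29.95% and 25.65% and mutant livers at 50.8% and 54.6%, a difference of 24.9 points that chose this tile. In E10.5 embryos, which are outside that contrast, the tile stood at 39.9% and 51.0% in wild type and 79.9% and 76.5% in mutants. That was 32.7 points higher in the mutants (45.5% ± 7.89 against 78.2% ± 2.42, SD, n = 2 each, edgeR adjusted p = 3.76e-08). In E18.5 livers it stood at 31.9% and 39.3% in wild type and 71.2% and 60.9% in mutants, 30.5 points higher (edgeR adjusted p = 9.81e-09). The groups did not overlap in any of the tissues. Without any single library the difference was 27.2 to 38.3 points at E10.5 and 25.3 to 35.7 at E18.5.

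The tile before it, chr4:129683001-129684000, which holds 17 CpGs and nearly no exon, moved the same way. Wild-type embryos stood at 20.8% and 41.5% there and mutants at 65.8% and 55.7%, 29.6 points higher (edgeR adjusted p = 5.40e-05). Without wild-type replicate 1 the difference was 19.3 points and the call was lost (edgeR adjusted p = 0.0505). In E18.5 livers the tile stood at 20.4% and 20.5% in wild type and 54.9% and 43.3% in mutants, 28.7 points higher (edgeR adjusted p = 1.41e-07). In E14.5 livers the values were 19.8% and 14.7% against 33.8% and 36.4%. The size of the genotype difference at E18.5 was not shown to differ from that at E10.5 in either tile: in a fit over all 12 libraries the change was -3.01 points for chr4:129684001-129685000 (edgeR unadjusted p = 0.336) and -1.30 for chr4:129683001-129684000 (edgeR unadjusted p = 0.951).

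These tiles were among the less methylated of Bai2 in wild type. Of its 34 tested tiles 3 near the gene start were under 2%, and the tile starting at 129683001 ranked 4th from the lowest in wild type in each tissue, and the tile starting at 129684001 ranked 6th, 5th and 5th. The median wild-type tile of Bai2 was at 76.1% in E10.5 embryos, 55.6% in E14.5 livers and 63.2% in E18.5 livers. In mutants the tile at 129684001 ranked 14th, 10th and 16th, near the middle of the gene's tiles at E18.5, while the tile at 129683001 ranked 7th, 4th and 5th and stayed among the lowest.

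Across the family, Bai2 had 2 called tiles of 34 tested at E10.5 and at E18.5 (5.88%), both higher in mutants. Of all tiles, 0.363% were called in E10.5 embryos, 0.122% in E14.5 livers and 0.133% in E18.5 livers. Bai1 had 0 called of 51 tested at E10.5 and 0 of 51 at E18.5, with 7 and 2 tiles at an unadjusted edgeR p under 0.05. Bai3 had 1 called of 71 at E10.5 (1.41%) and 0 of 91 at E18.5, with 8 and 6 tiles at an unadjusted edgeR p under 0.05. Over all tiles, 65508 of 608846 at E10.5 and 51713 of 689415 at E18.5 were at such a p. At E14.5, in the contrast that chose Bai2, the thresholds were passed by 2 of 34 tiles of Bai2, 0 of 60 of Bai1 and 1 of 154 of Bai3, and nothing is read from these counts. Of the 763 tiles that overlap Bai3, most held too few covered CpGs to be tested, and the untested tiles are not described.

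Most tested tiles, the called ones included, were higher in mutants. In Bai2, 30 of 34 tiles were higher in mutants at E10.5, 27 at E14.5 and 24 at E18.5. The same counts were 40 of 51, 47 of 60 and 38 of 51 in Bai1, and 41 of 71, 113 of 154 and 60 of 91 in Bai3. The median tile difference was 2.93, 2.58 and 2.98 points in Bai2, 2.03, 2.24 and 1.65 in Bai1 and 0.714, 2.11 and 1.11 in Bai3, beside 1.13, 1.87 and 2.04 over all tiles. The median of Bai2 lay above that of all tiles at E10.5 and E18.5, and that of Bai1 did at E10.5 only. At E14.5, in the contrast that chose Bai2, the medians of all 3 genes did, which is a description. The share of all tiles that were higher in mutants was not computed. The lowest Bai2 tile was at chr4:129691001-129692000 in E18.5 livers, 54.0% and 55.6% in wild type and 45.1% and 40.6% in mutants, and was not called (edgeR adjusted p = 0.463).

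**Figure D2:**
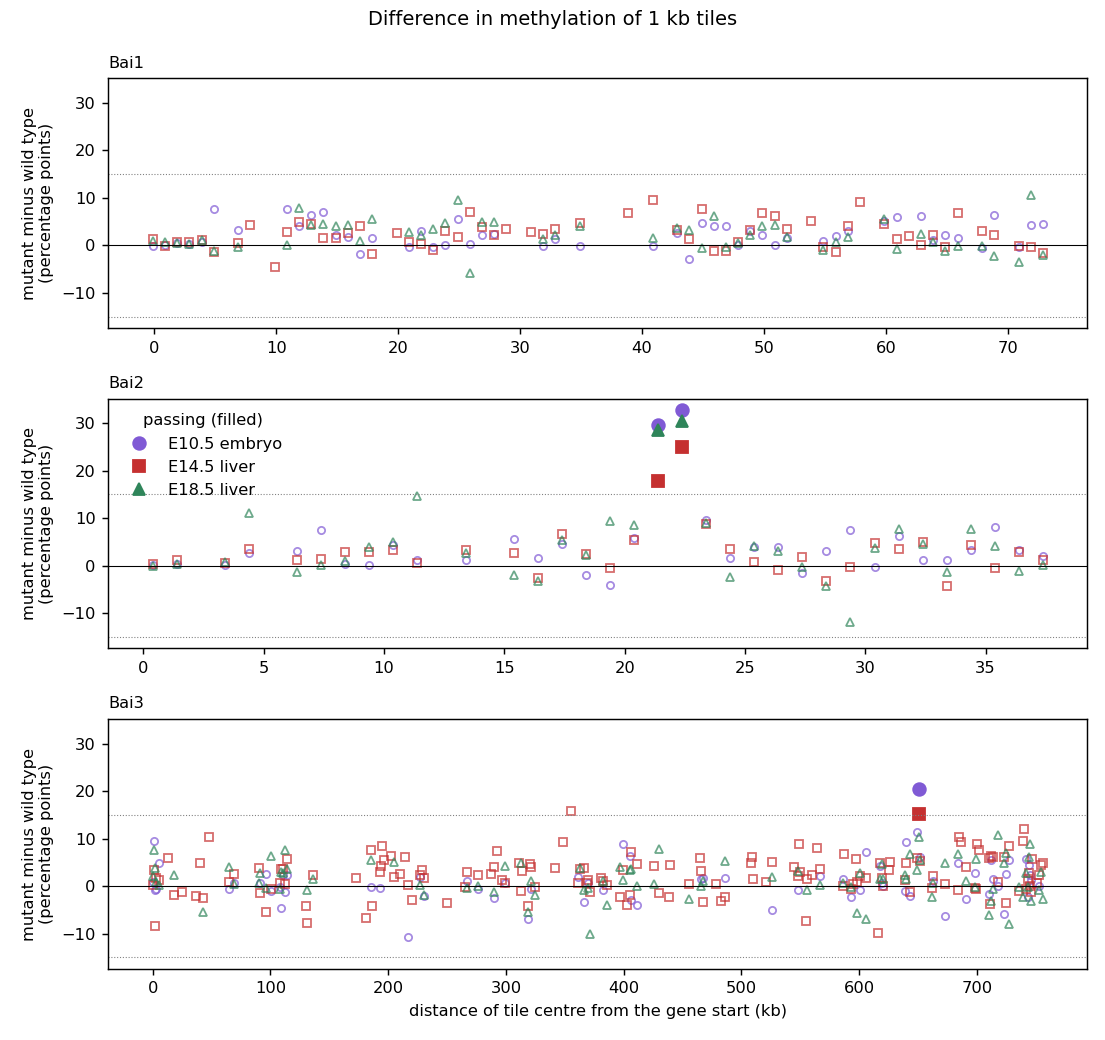
Mutant minus wild-type methylation (percentage points) of each tested 1 kb tile against distance of its centre from the gene start (kb), with one panel for each gene and a marker for each tissue. Filled markers were called (adjusted p under 0.05 and over 15 points, dotted lines), and dotted lines mark 15 points; Bai2 has 2 filled tiles at E10.5 and at E18.5, Bai3 has 1 at E10.5 and Bai1 has 0, and the filled E14.5 markers belong to the contrast that chose Bai2 and are a description.

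The differing part of Bai2 spans a repeat exon and non-coding sequence on its sides. Of the 37 CpGs that differed by over 20 points at E10.5, 15 were in coding exons, as were 22 of all 54 CpGs of the 1 kb tiles. The repeat exons of the family were set side by side, and this comparison was chosen after the Bai2 values were seen and is a description. Coding exons of 150 to 180 bp whose translation holds tryptophans separated by 2 residues numbered 5 in Bai1, 4 in Bai2 and 4 in Bai3, 13 in all. The Bai2 exon at chr4:129683996-129684160 held 15 CpGs and was 72.7% G and C, the most of any of them, and it was in 6 of the 7 coding transcripts of Bai2. The other 12 exons had 2 to 13 CpGs.

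The Bai2 exon stood at 16.6% and 29.3% in wild-type embryos and 68.9% and 67.6% in mutants, a difference of 45.3 points. In E14.5 livers it stood at 10.46% and 4.82% against 35.2% and 40.3%, and in E18.5 livers at 14.1% and 13.1% against 63.0% and 49.3%, differences of 30.1 and 42.6 points. The differences of the other 12 exons ran from -5.54 to 12.8 points at E10.5, where Bai3 exon 2 had no value. They ran from 0.632 to 13.6 at E14.5 and from -12.1 to 17.4 at E18.5. The largest of these, 17.4 points, was in Bai3 exon 2, which holds 2 CpGs.

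The neighbouring repeat exons of Bai2 were more methylated in wild type. In E10.5 embryos, Bai2 exon 1 stood at 65.0% and 68.2% in wild type and 79.4% and 76.0% in mutants. Exon 3 stood at 80.8% and 84.3% against 94.5% and 87.8%, and exon 4 at 86.7% and 82.6% against 93.8% and 96.4%. In liver, exon 1 was less methylated than in embryos, at 41.9% and 34.1% in wild type and 42.1% and 42.9% in mutants at E14.5, and at 50.5% and 51.0% against 66.6% and 56.8% at E18.5.

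The Bai1 exon printed above shares 69.7% of its bases with the Bai2 exon and holds 4 CpGs. It stood at 29.7% and 26.9% in wild-type embryos and 39.1% and 43.1% in mutants, at 28.5% and 23.1% against 42.6% and 19.7% in E14.5 livers, and at 23.5% and 19.1% against 32.4% and 36.1% in E18.5 livers. At E14.5 the genotypes overlapped there. The Bai3 exon printed above shares 60.6% and holds 2 CpGs, and no CpG of it had 6 reads in all 4 E10.5 libraries. Its E14.5 values were 53.7% and 60.5% in wild type and 74.2% and 60% in mutants, which overlap. At E18.5 they were 60% and 52.9% against 63.2% and 84.6%, with both mutants above. Bai1 exon 1, with 13 CpGs, was nearly unmethylated in all 12 libraries, from 0.397% to 4.50%.

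**Figure D3:**
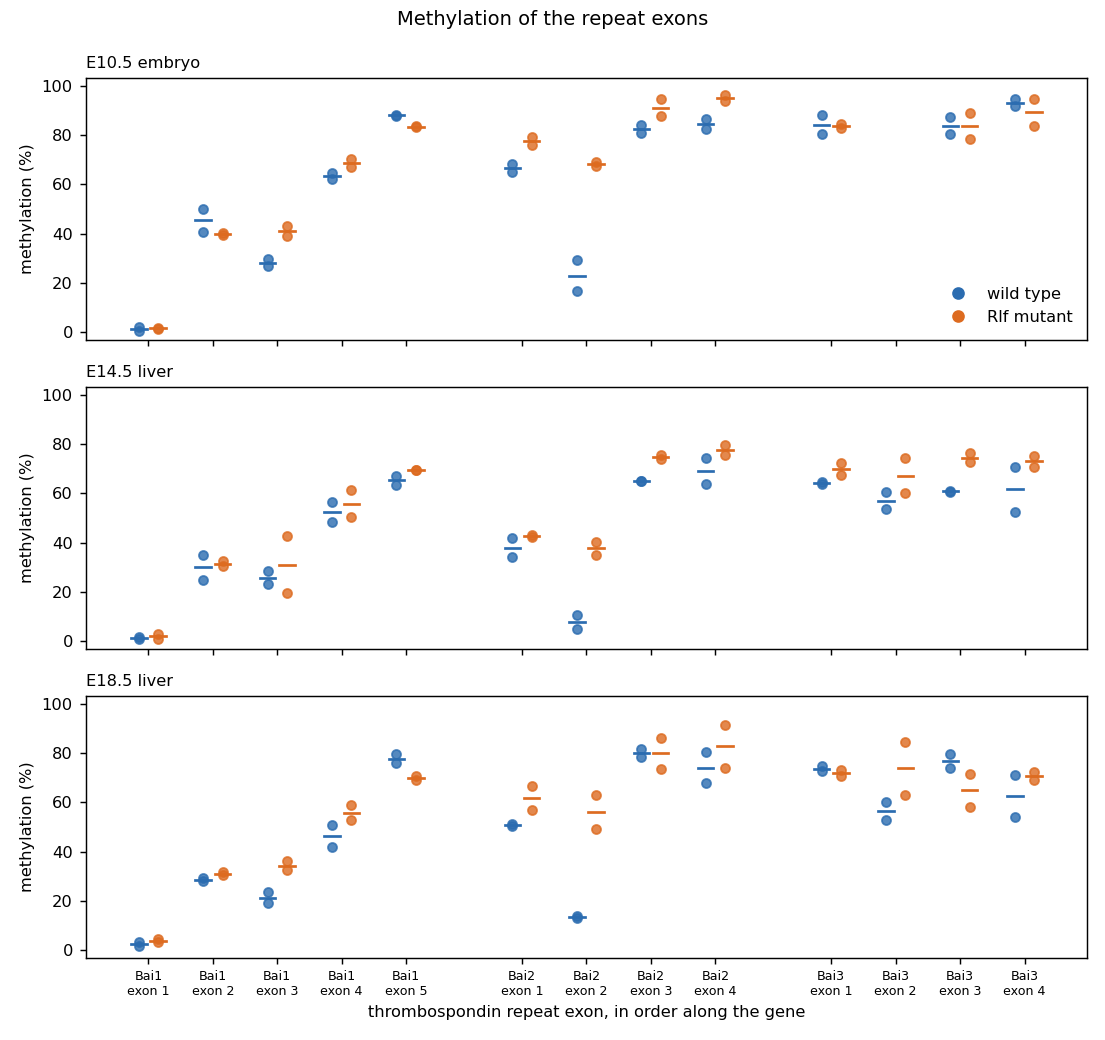
Methylation (%) of the 13 thrombospondin type 1 repeat exons in order along each gene, with one panel for each tissue; points are libraries (2 of each genotype) and short lines their means. The exon chr4:129683996-129684160 of Bai2 is low in wild type and near the middle of the scale in mutants, and the other 12 differ by at most 17.4 points; the points missing at E10.5 belong to Bai3 exon 2.

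Bai3 had 1 called tile, far from its start and inside an intron, chr1:25235001-25236000, which holds 23 CpGs and no exon base. Its most CpG-dense 300 bases on mm9, chr1:25235586-25235885 (plus strand, 11 CpGs in capitals), are shown as the part of the tile where CpGs lie closest together.
Bai3 intronic tile: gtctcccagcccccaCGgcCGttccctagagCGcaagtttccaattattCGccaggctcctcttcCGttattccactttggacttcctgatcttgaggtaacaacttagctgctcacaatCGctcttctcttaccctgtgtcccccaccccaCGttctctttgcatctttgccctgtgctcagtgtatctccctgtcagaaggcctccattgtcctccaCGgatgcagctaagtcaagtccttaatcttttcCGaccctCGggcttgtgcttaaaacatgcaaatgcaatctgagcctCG

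The printed part stood at 35.6% and 48.4% in wild-type embryos and 69.7% and 64.4% in mutants. The largest difference of a single CpG of the tile lay just outside it, at position 25235914, at 34.2% in wild-type and 86.1% in mutant embryos on average.

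The Bai3 tile stood at 45.8% and 55.9% in wild-type embryos and 71.7% and 70.8% in mutants, 20.4 points higher (edgeR adjusted p = 8.38e-04). Without wild-type replicate 1 the difference was 15.4 points and was no longer called (edgeR adjusted p = 0.123). In E14.5 livers it stood at 46.7% and 53.2% against 66.6% and 63.9%. In E18.5 livers it stood at 59.4% and 57.8% against 71.2% and 66.7%, 10.4 points higher and not called (edgeR adjusted p = 0.496). Both mutants were above both wild types at 17 of its 22 CpGs at E10.5 (77.3%), 15 at E14.5 (68.2%) and 8 at E18.5 (36.4%). They were below both at 0, 1 and 1. Of all covered CpGs, 17.6%, 21.1% and 19.7% had both mutants above in those tissues. The tile was picked by its call, so the E10.5 count restates that call, and the E14.5 count is a description. The E18.5 difference was 10.4 points smaller than the E10.5 difference in the fit over all 12 libraries, which was not past the threshold (edgeR unadjusted p = 0.0516, adjusted p = 0.9948).

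At E10.5 one more tile of Bai1 passed the adjusted p but not the 15 points. This was chr15:74360001-74361000, over part of the first coding exon, at 6.90% and 9.63% in wild type and 13.9% and 16.8% in mutants, 7.09 points higher (edgeR adjusted p = 0.0442). Next to the called tiles of Bai2, chr4:129685001-129686000 did the same, at 82.2% and 85.9% against 92.8% and 94.4%, 9.61 points higher (edgeR adjusted p = 0.0167).

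The starts of the 3 genes were nearly unmethylated. In the window from 1 kb before to 1 kb after the annotated start, Bai1 ranged from 1.25% to 3.93% over the 12 libraries, Bai2 from 0.175% to 1.59% and Bai3 from 0.886% to 4.11%. By genotype 0 of the 6 comparisons at E10.5 and E18.5 was called by edgeR, and 2 were at an unadjusted p under 0.05, both Bai3, where 2320 of all 18987 starts were at E10.5 and 1657 of 19381 at E18.5. Bai3 stood at 0.886% and 1.22% in wild-type and 1.71% and 2.02% in mutant embryos (edgeR adjusted p = 0.330), and at 2.43% and 2.35% against 3.83% and 3.42% in E18.5 livers (edgeR adjusted p = 0.553). The share of all gene starts called was 1.31% at E10.5, 0% at E14.5 and 0.526% at E18.5. The E14.5 count was 0 of 20156 in edgeR, with 2328 starts at an unadjusted p under 0.05 and 1013 called with the replicate number, which is also the sex there, as a block.

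Some of the genes' alternative starts were methylated and some were not. The Bai2 alternative start 7.20 kb into the gene, at 129669312, stood at 62.3% to 80.2% over the 12 libraries. The Bai1 alternative start at 74394283 stood at 1.67% to 4.47%. For Bai3 the start at 25883605, 2.95 kb in, stood at 48.7% to 76.6%, and the start at 25285671, 601 kb in, at 3.09% to 8.10%. The last is unmethylated although it lies deep in a gene body that was mostly methylated.

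In wild type, the Bai2 start rose by 0.718 points from E10.5 embryos to E14.5 liver (0.169% and 0.406% against 0.809% and 1.201%, edgeR adjusted p = 0.0091), and the Bai3 start by 1.75 points (0.838% and 1.15% against 1.90% and 3.58%, edgeR adjusted p = 0.0152). The Bai1 start stood at 2.32% and 1.24% against 3.23% and 2.46% and was not called (edgeR adjusted p = 0.123). Of all starts, 49.9% were called in this comparison. Among these 6705 fell and 2898 rose, and the median start changed by -0.312 points. The Bai2 call was lost without E10.5 wild-type replicate 1 (edgeR adjusted p = 0.0559), and the Bai3 call without replicate 1 (edgeR adjusted p = 0.110) or replicate 2 (edgeR adjusted p = 0.0506). The Bai1 start was called without E10.5 replicate 1 (edgeR adjusted p = 0.0336) or E14.5 replicate 2 (edgeR adjusted p = 0.0456). From E14.5 to E18.5 liver 0 of the 3 starts was called by edgeR, and 0 was at an unadjusted p under 0.05, where 0.046% of all starts were called.

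Gene bodies were ordered Bai3, Bai2, Bai1 from most to least methylated in every wild-type pair, with no overlap between the genes. In wild-type E10.5 embryos Bai3 stood at 80.8% and 81.6%, Bai2 at 52.5% and 54.1% and Bai1 at 45.7% in both libraries. From E10.5 embryos to E14.5 liver the body of Bai3 fell by 23.0 points (81.0% and 81.8% against 57.0% and 59.8%), that of Bai2 by 11.62 and that of Bai1 by 10.52 (edgeR adjusted p = 5.44e-40, 1.17e-08 and 1.21e-07), where 76.9% of all bodies were called and the median body changed by -9.71 points. From E14.5 to E18.5 liver Bai3 rose by 6.72 points, Bai2 by 5.19 and Bai1 by 3.67 (edgeR adjusted p = 8.34e-04, 0.00427 and 0.0404), where 38.1% of all bodies were called. All 3 of these last calls were lost without E18.5 wild-type replicate 1 and also without replicate 2 (edgeR adjusted p = 0.151 and 0.192 for Bai2).

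By genotype 0 of the 6 comparisons of gene bodies at E10.5 and E18.5 was called by edgeR, and 2 were at an unadjusted p under 0.05, Bai1 and Bai2 at E10.5, where 4372 of all 19987 bodies were. The Bai2 body stood at 52.5% and 54.1% in wild-type and 58.3% and 57.4% in mutant E10.5 embryos, a difference of 4.54 points (edgeR adjusted p = 0.111). The Bai1 body stood at 45.7% in both wild-type embryos against 50.1% and 49.1%, 3.90 points (edgeR adjusted p = 0.104), and Bai3 at 80.8% and 81.6% against 81.7% and 82.0%, 0.643 points (edgeR adjusted p = 0.523). The difference at E14.5 was 3.54, 2.51 and 2.29 points for Bai2, Bai1 and Bai3, and at E18.5 2.08, 1.14 and 1.74. Of all bodies 1.45% were called at E10.5, 2.93% at E14.5 and 0.501% at E18.5. The median difference over all bodies was 1.80, 1.94 and 1.59 points towards the mutants. With the replicate number as a block, the bodies of Bai1 and Bai2 were called at E10.5, and so were 3630 of all 19987 bodies. Without wild-type replicate 2 the Bai2 body was called at E10.5 (5.31 points, edgeR adjusted p = 0.0233), as were 2975 of all 19987 bodies. Without mutant replicate 2, the less methylated mutant of that tissue, all 3 bodies were called at E18.5 (Bai2 4.05 points, edgeR adjusted p = 0.0171), as were 6925 of all 20156.

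**Figure D4:**
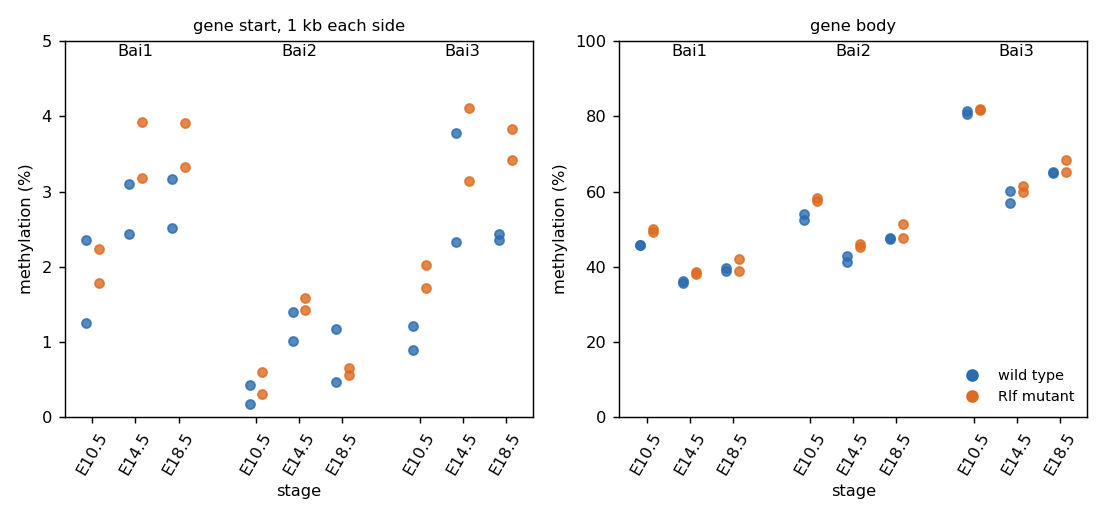
Methylation (%) of the window 1 kb each side of the gene start and of the gene body by stage, for Bai1, Bai2 and Bai3; points are libraries, 2 of each genotype. The starts are at most 4.11% and the bodies are ordered Bai3, Bai2, Bai1 at each stage, with the lowest values at E14.5.

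The genes whose bodies came closest to each member over the 12 libraries, by root mean square gap in percentage points among 16740 genes, were Rab20 (1.39), Mzt2 (1.43) and 1600014C10Rik (1.49) for Bai1. For Bai2 they were C630004H02Rik (0.812), Cdh22 (1.12) and Mkx (1.13), and for Bai3 Rit2 (0.583), Fbxl7 (0.584) and Itgbl1 (0.598). The members were not among each other's nearest genes, since the gap was 8.14 points between Bai1 and Bai2, 20.1 between Bai2 and Bai3 and 28.1 between Bai1 and Bai3. The median gap to all genes was 23.6 points for Bai1, 17.6 for Bai2 and 10.6 for Bai3. Bai1 and Bai2 were thus closer than most pairs, with 11.7% of genes closer to Bai1 than Bai2 was and 17.9% closer to Bai2 than Bai1 was. Bai3 lay further from both than the median gap.

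None of the family was expressed above a trace in E14.5 liver. Wild-type livers had 13, 16 and 15 counts of Bai2, and mutant livers 14, 8 and 19. The mutants spanned the wild-type values, with replicate 2 lowest and replicate 3 highest of all 6. In CPM (counts scaled by library size) per kb of exon this was 0.160 ± 0.00988 in wild type and 0.154 ± 0.0595 in mutants (SD, n = 3 each), and no change was called (log2 change -0.05, SE 0.33, edgeR adjusted p = 0.966). Of all genes tested, 1.39% were called. In bulk tissue, fewer cells with a transcript and less transcript per cell cannot be told apart.

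Bai1 had 1, 1 and 4 counts in wild type and 0, 0 and 2 in mutants, and Bai3 had 2, 0 and 4 in wild type and 0, 1 and 1 in mutants. Both failed the filter on low counts, so only Bai2 of the 3 members was tested as above. With no filter the log2 change was -1.38 for Bai1 (SE 1.22) and -1.38 for Bai3 (SE 1.23), and neither was called (edgeR adjusted p = 0.730 for each). Summed over a genotype, Bai1 had 6 counts in wild type (95% Poisson interval 2.20 to 13.1, counting error only) and 2 in mutants (0.242 to 7.22), and Bai3 also had 6 and 2. The intervals overlap, and no difference was detectable at this depth of 12928313 to 14621004 counts per library. The highest Bai1 and Bai3 counts, 4 each, were both in wild-type replicate 3, which also had the highest summed level of the 5 neural markers, 1.17 CPM per kb against 0.402 in the lowest wild-type library and 0.298 to 0.608 in mutants. None of the 5 neural markers was at 0 in all 6 libraries. Tubb3 made up most of the sum in wild-type replicate 3, at 0.896, and Syt1 and Elavl3 were also highest there. Rbfox3 was lower there, at 0.0839, than in the other wild-type libraries, and Snap25 was at 0 in all wild-type libraries. The part of the neural markers in the Bai1 and Bai3 counts was not tested.

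**Figure D5:**
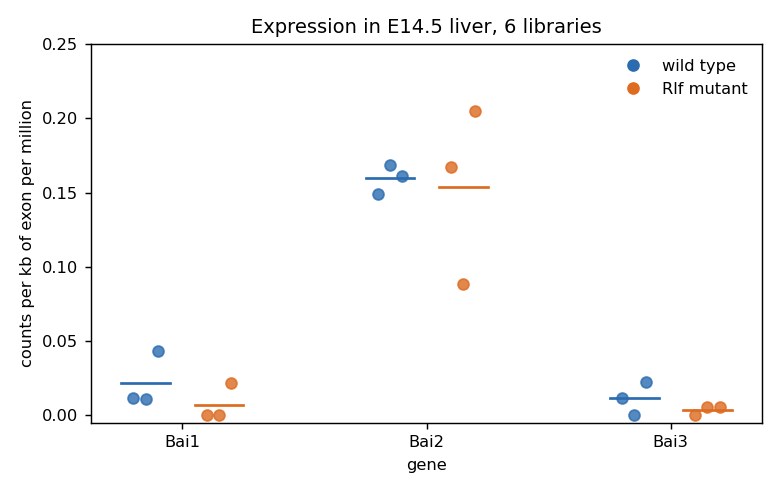
Expression in CPM per kb of exon of Bai1, Bai2 and Bai3 in E14.5 liver; points are the 3 libraries of each genotype and short lines their means. Bai2 lies at 0.160 in wild type and 0.154 in mutants with overlapping libraries, and Bai1 and Bai3 lie near 0.

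Other genes of the receptor class and of the partners of Bai proteins were taken from lists chosen by their roles. Of 28 other adhesion G protein-coupled receptors, 19 were tested by edgeR, 0 was called and 5 were at an unadjusted p under 0.05, with a median log2 change of 0.11. Over all 14183 genes tested, 1.39% were called, 2071 were at an unadjusted p under 0.05 and the median was 0.00. With the replicate number as a block, 1 receptor gene, Lphn2, was called. The most expressed were Gpr56, also known for roles in blood cells and brain, at 46.6 ± 0.926 CPM per kb in wild type and 49.7 ± 2.85 in mutants, and Emr1, a macrophage receptor, at 17.8 ± 3.03 and 14.8 ± 0.907. Gpr125 stood at 10.6 ± 1.41 and 11.8 ± 1.34, and Cd97, a leukocyte receptor, at 7.14 ± 1.45 and 6.64 ± 0.270 (SD, n = 3 each).

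Of 30 Bai partners and engulfment genes, 23 were tested, 1 rose, 0 fell and 10 were at an unadjusted edgeR p under 0.05, with a median log2 change of 0.20. Over all genes tested, 1.39% were called and 2071 of 14183 were at such a p. The one that rose was Itgb3, an integrin subunit of platelets and megakaryocytes that also serves in engulfment. It stood at 20.6, 25.1 and 24.3 CPM per kb in wild type and 31.4, 30.3 and 34.0 in mutants, so the groups did not overlap (log2 change 0.46, SE 0.07, edgeR adjusted p = 0.0122). The call was lost without mutant replicate 3. The summed level of the 3 megakaryocyte markers was 298 to 318 CPM per kb in wild type and 377 to 424 in mutants, of which Pf4, a platelet chemokine, passed the test (log2 change 0.40, edgeR adjusted p = 0.0143), and none of the 3 was at 0. The part of the megakaryocyte markers in the Itgb3 result was not tested. Of the other marker groups, the hepatoblast sum was also higher, at 27885 to 32024 in wild type and 33018 to 38240 in mutants. The neutrophil sum was lower in mutants, at 372 to 434 against 484 to 738 in wild type, and the remaining groups overlapped. Of 30 markers tested by edgeR, 1 rose and 2, both neutrophil, fell. The other neutrophil marker, Mpo, went the other way on average, at 82.2 ± 16.6 CPM per kb in wild type and 89.0 ± 7.30 in mutants (SD). It was not called (log2 change 0.13, edgeR adjusted p = 0.646). With the replicate number as a block, Abca1, a lipid transporter, was called beside Itgb3.

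The other partners did not pass the test. Rac1, the small GTPase at the end of the engulfment route, stood at 77.3 ± 5.53 in wild type and 78.4 ± 4.76 in mutants, Mfge8, a bridge to phosphatidylserine, at 69.5 ± 4.19 and 69.0 ± 8.34, and the adaptor Crk at 30.4 ± 1.33 and 31.3 ± 0.610 (CPM per kb, SD, n = 3 each). The C1q-like ligands were near absent, as C1ql1 had 2 to 5 counts, C1ql3 1 to 7, C1ql4 0 or 1 and C1ql2 0 in all 6 libraries. Of 11 neural genes in the count files, 3 were tested and 0 was called by edgeR, with 1 at an unadjusted p under 0.05. Their median log2 change was -0.81, and Gap43 was the only tested one that was higher in mutants. Gap43, a growth cone protein, was also the most expressed, at 2.94 ± 0.349 and 4.21 ± 0.436 (edgeR adjusted p = 0.141). Tubb3, Stmn2 and Syp stood at 0.490 ± 0.353, 0.380 ± 0.464 and 0.198 ± 0.0605 in wild type. In mutants they stood at 0.296 ± 0.105, 0.154 ± 0.0455 and 0.113 ± 0.0633.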

How the data were processed

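The deposited methylation files hold, per CpG, a percent methylated and counts of methylated and unmethylated reads that the authors made with Bismark and Bowtie2 on mm9 changed to FVB bases, with duplicates removed and strands merged. For RNA, the authors aligned unstranded reads with TopHat and deposited HTSeq counts per gene. Unconverted cytosines of lambda spike-in DNA were 0.0412% to 0.0775%. The 3 members and the gene lists were chosen with earlier results of these data known. CpGs needed 6 reads in every library of the tissue, and tiles or windows 8 such CpGs. Tiles start at multiples of 1000 bp. A level is methylated over all reads. edgeR 4.0.16 (R 4.3.3) quasi-likelihood fits tested methylated against unmethylated counts per tissue, and TMM-scaled, filterByExpr-filtered RNA counts, both tested on simulated data. DESeq2 1.42.0 was an alternative for RNA counts. Gene models and sequences came from a GENCODE mm9 annotation and mm9 reference, an earlier release than the one used for counting, so lengths per kb are approximate.

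Named genes were the members, called list genes, the 4 most expressed of each list and the 3 nearest in gene-body methylation. The other C1q-like ligands, Pf4, Mpo, Snap25, Syt1, Rbfox3, Elavl3, Abca1 and Lphn2 were named after their values were seen. Lengths for levels per kb are merged exon lengths. Labels, not values, set the groups. The mice of a genotype are labelled as separate samples, and p-values measure only the spread between such samples. edgeR estimates that spread in part from all features together, not from the feature alone. The replicate numbers of the RNA libraries met the bar for pairs, because deviations from the genotype means correlated within each number (r = 0.125, 0.227 and 0.409 across 14183 genes), and replicate 3 was female in both genotypes. The reported fit leaves this pairing out, and the fit with it as a block is given where a call changes. The 4 H3K4me1 samples were not analysed here.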

Additional observations from a re-analysis of the deposited data

Results flagged for a closer look

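Some values of the family moved one way in every mutant library of one tissue and the other way in every mutant library of another. None of these differences was tested, and each rests on 2 libraries of each genotype. They were picked for moving in opposite ways from the 13 repeat exons, the start windows and the gene bodies of the family. How often such opposite moves arise by chance with 2 libraries of each genotype was not computed. The E14.5 values are from the contrast that chose Bai2. Bai1 repeat exon 2 was higher in both mutants in E18.5 liver (31.6% and 30.6% against 27.9% and 29.2%) and lower in both in E10.5 embryos (39.4% and 40.3% against 50.2% and 40.6%), and the effects differed by 8.08 points. Bai1 repeat exon 5 was higher in E14.5 mutants (69.6% in both against 63.6% and 67.03%), lower in E10.5 mutants (83.8% and 83.2% against 88.1% and 87.8%) and lower in E18.5 mutants (70.7% and 69.2% against 75.9% and 79.6%). Its E14.5 effect differed from that at E10.5 by 8.80 points and from that at E18.5 by 12.1. Bai3 repeat exon 3, which has 3 CpGs, was higher in E14.5 mutants (76.3% and 72.5% against 61.0% and 60.7%) and lower in E18.5 mutants (71.4% and 58.2% against 79.8% and 74.1%), a gap of 25.7 points. The Bai3 alternative start at 25285671 was lower in E10.5 mutants (3.51% and 3.09% against 3.94% and 3.85%), higher at E14.5 by 2.73 points relative to that effect, and higher at E18.5 by 3.44.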

How the results depend on the processing

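Of 169 alternatives, 152 kept the call of a tested value, moved an untested value by less than 1 SD or kept a count within 1.5 times. Called family tiles at E10.5, 3 as reported, were 5 by adjusted p alone and 1 to 4 without a library, the lowest without wild-type replicate 1. At E18.5, 2 as reported, tiles moved by 500 bp gave 1. The gene bodies called by genotype over all tissues, 0 without a block, were 2 with a replicate block and 0 to 3 without a library, and calls across tissues, 8 of 12 as reported, were 5 to 9. The Bai2 log2 change was -0.32 to 0.23 without a library, of which 0.23 came without mutant replicate 2, where its direction reversed, and -0.07 with a replicate block. List genes called in RNA, 1 as reported, were 6 without a filter on low counts, 3 with a replicate block and 0 to 2 without a library. All genes called were 197 as reported, 460 with the replicate block and 532 without a filter. By genotype, gene starts had 0 member calls under all 16 alternatives. In bisulphite libraries the deviations of same-numbered samples hardly correlated (r = 0.0447, 0.0513 and -0.0120), though at E14.5 the number is also the sex, and the replicate block left 3 called family tiles at E10.5 and 2 at E18.5 and moved all called tiles from 2212 to 2839, 1114 to 1120 and 918 to 735. The cause of these shifts was not tested. With 2 libraries a group and most Bai3 tiles too thin in CpGs, small differences could not be detected, nor could small changes at the trace counts of Bai1 and Bai3.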

Other observations

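Methylation at the other list genes was also measured. None of the 28 other adhesion receptor genes was called by edgeR at its start or body in any tissue, among 23 to 27 tested, with 2 to 7 starts and 0 to 6 bodies at an unadjusted p under 0.05 in a tissue. Of the 30 partners, the bodies of C1ql1 and C1ql2, C1q-like ligand genes, were called in E14.5 liver, where 2.93% of all bodies were. The median difference over all bodies there was 1.94 points, above that of C1ql2. C1ql1 stood at 13.3% and 13.9% in wild type and 17.6% and 18.8% in mutants (4.66 points, edgeR adjusted p = 2.16e-04), and C1ql2 at 1.86% and 1.82% against 2.99% and 3.13% (1.22 points, edgeR adjusted p = 7.72e-06). Among neural genes, the start of Syp, a synaptic vesicle protein, was called in E10.5 embryos, where 1.31% of all starts were, at 1.17% and 0.923% in wild type and 3.105% and 2.999% in mutants (2.01 points, edgeR adjusted p = 0.0457). No other start or body of the partner and neural lists was called, with 0 to 12 of a list's starts or bodies at an unadjusted edgeR p under 0.05 in a tissue. The 12 were partner bodies at E10.5, of 30 tested. Over all genes, 4372 of 19987 bodies and 2320 of 18987 starts were at such a p at E10.5. These counts were 3398 of 20480 and 2328 of 20156 at E14.5, and 804 of 20156 and 1657 of 19381 at E18.5.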
